A study of Mus musculus with 56 samples.

Results

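Mouse mammary tumors were divided by how much adipocyte transcript each RNA sample held, and the 14 adipose-rich arrays were compared with the 14 adipose-poor arrays. These 28 arrays were chosen out of 56 by measured values. A score, the mean log2 level of the adipocyte genes Adipoq, Fabp4 and Cidec, was ranked separately among the 32 arrays of wild-type hosts and the 24 arrays of Tgfb1 heterozygote hosts. The top 8 and bottom 8 wild-type arrays and the top 6 and bottom 6 heterozygote arrays were taken. The choice was meant to use a 4th gene, Cfd, but no probe set in the annotation used here carried that symbol, so the score rested on 3 genes.

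Every tumor arose from a p53-null mammary fragment. The fragments were placed in inguinal fat pads of female BALB/c hosts whose own epithelium had been cleared at 3 weeks of age. Hosts were irradiated or sham-treated 3 days before the transplant, and the labels describe only the hosts as exposed. The series' design text calls all hosts irradiated while also listing sham arms; the sample labels were followed here, so the counts by irradiation below rest on them. Of the tumors in wild-type hosts, 9 came from the sham arm and 23 from the irradiated arm, and for heterozygote hosts the numbers were 6 and 18. The transplanted fragments lacked p53 in all groups, so no group gives a tumor of normal p53 status, and the heterozygote hosts kept 1 copy of Tgfb1. The labels do not say whether any tumors shared a host, so p-values measure the spread between these tumors.

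The mammary epithelium grows within a fat pad, and a tumor of the gland lies against or among its adipocytes. White adipocytes store triglyceride in a lipid droplet coated by perilipins and CIDE proteins, import fatty acids that lipoprotein lipase frees from circulating lipoproteins, and secrete hormones such as adiponectin and resistin. The fat pad also holds progenitor fibroblasts, vessels, resident macrophages and lymphoid cells.

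Total RNA from each tumor was hybridised to a 3' expression array, and all levels below are log2 values normalized by the authors. In bulk RNA, fewer cells of a type and less RNA per cell cannot be told apart, so "adipose-rich" means rich in these transcripts. The array medians ran from 5.92 to 6.00 in wild-type arrays and from 5.57 to 5.71 in heterozygote arrays, so host genotype was kept as a block and levels were not compared across genotypes.

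The score ran from 8.12 to 10.11 in the wild-type adipose-rich arrays (median 8.27) and from 5.80 to 6.76 in the adipose-poor arrays (median 6.28). In heterozygote arrays it ran from 8.47 to 10.60 (median 8.90) and from 5.33 to 6.36 (median 6.17). These values chose the groups and carry no test. No wide gap in the score marked the cuts. The lowest wild-type adipose-rich array stood at 8.12 with the next array at 7.97, and the highest adipose-poor array stood at 6.76 with its neighbour at 6.79. The matching heterozygote pairs were 8.47 and 8.32, and 6.36 and 6.42.

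Adipoq, the adipocyte hormone adiponectin, ran from 7.86 to 10.22 in wild-type adipose-rich arrays (median 8.35) and from 3.65 to 6.15 in adipose-poor arrays (median 4.85). In heterozygote arrays it ran from 8.11 to 10.70 (median 8.73) and from 3.54 to 4.71 (median 4.11). Cidec, a lipid droplet protein, ran from 5.47 to 7.97 against 4.12 to 4.65 in wild-type arrays, and from 5.26 to 8.44 against 4.05 to 4.67 in heterozygote arrays. Both genes separated the groups fully in each genotype. Fabp4, a fatty acid carrier of adipocytes that other cells can also make, did not. It ran from 10.53 to 13.57 against 8.39 to 10.81 in wild-type arrays, and from 11.13 to 12.64 against 7.72 to 11.24 in heterozygote arrays.

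**Figure D1:**
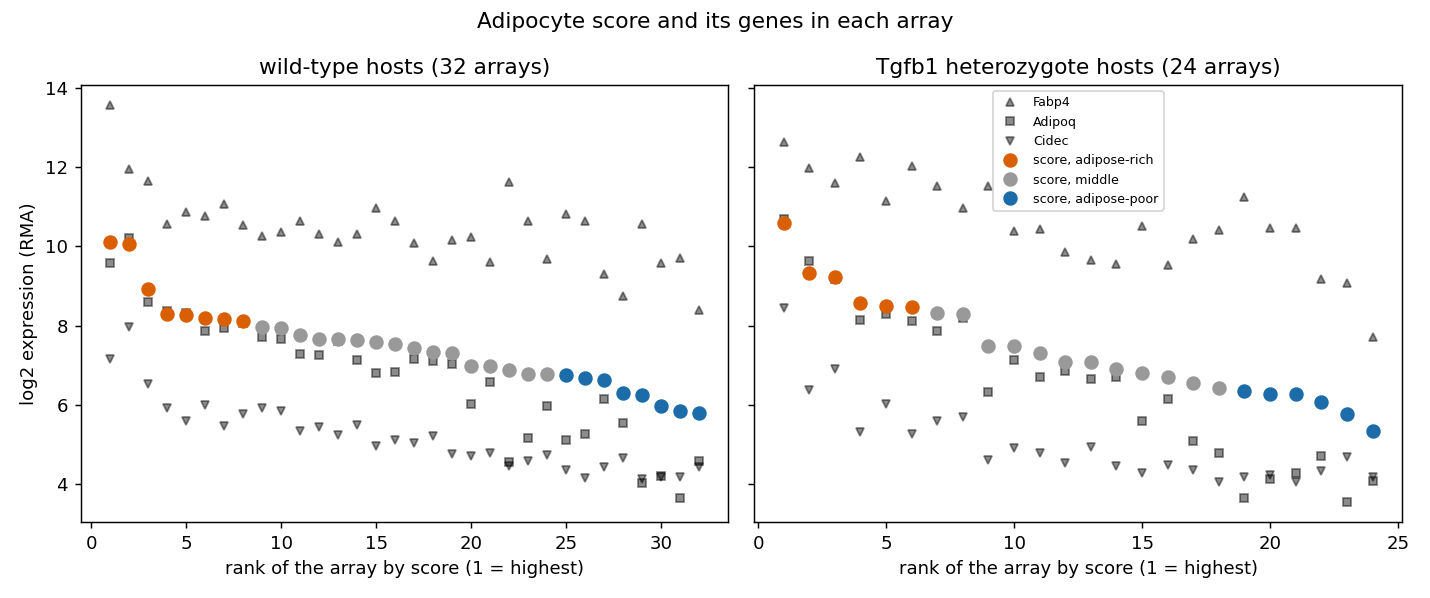
The plot shows the log2 level of the 3 score genes and their mean (the score) in each array, ordered by rank within the 32 wild-type arrays (left) and the 24 heterozygote arrays (right). Large circles are scores, orange for adipose-rich, grey for middle and blue for adipose-poor arrays. The score falls from 10.11 to 5.80 and from 10.60 to 5.33. The highest arrays stand apart, at 10.11 and 10.05 before 8.93 in wild-type hosts and at 10.60 before 9.33 in heterozygote hosts.

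Irradiated and sham hosts were present in both groups. Among wild-type arrays, 4 of 8 adipose-rich and 5 of 8 adipose-poor tumors came from irradiated hosts (Fisher's exact test, two-sided, p = 1.0). Among heterozygote arrays the counts were 5 of 6 and 4 of 6 (Fisher's exact test, two-sided, p = 1.0). Groups of this size can show only large differences in these shares.

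Across the 12505 genes tested outside the score, 23 differed between adipose-rich and adipose-poor tumors (0.184%; limma, Benjamini-Hochberg adjusted p below 0.05, termed called below). Of these, 20 were higher (0.16%) and 3 were lower (0.024%) in adipose-rich tumors. The counts of 23 and 20, here and below, include Adh1 and Dpep1. These 2 genes passed the filter, 6 or more arrays above a floor, only through adipose-rich arrays, so their differences are a description. Under a stricter filter of 14 arrays, which neither gene passed, 19 genes were called, 16 higher and 3 lower. The median log2 difference over all genes was 0.01, with 51.5% of genes above 0, and 7.6% of genes had an unadjusted p below 0.05. After all arrays were quantile normalized together the calls split into 20 higher and 0 lower. Only 17 of the 23 genes were among them, and Mzb1, Retnla, Syngr2, Dzip3, Zfp317 and Tbc1d12 lost the call. The higher genes included members of the adipocyte lists (Car3, Cyp2e1, Cd36, Lpl, Plin4 and Retn), of the B and plasma cell list (Jchain and Mzb1) and of the adipose progenitor list (Dpt), and others such as the C-type lectins Clec10a and Cd209a that stood in no list. All 20 had a positive difference in both host genotypes taken apart. They were called on these same arrays together, so this shared direction is a description and not separate support.

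Car3, a carbonic anhydrase abundant in white adipocytes, showed the largest difference. Its level ran from 10.82 to 12.93 in wild-type adipose-rich arrays (median 11.46) and from 7.06 to 9.41 in adipose-poor arrays (median 7.64). In heterozygote arrays it ran from 11.15 to 13.66 (median 11.90) and from 4.32 to 8.28 (median 7.24). The groups did not overlap in either genotype. The log2 difference was 4.40 ± 0.39 (SE, 14 against 14 arrays), a 21.1-fold difference (limma adjusted p = 1.19e-07). A second Car3 probe set gave a log2 difference of 3.15.

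Plin4, a perilipin of nascent lipid droplets, ran from 6.14 to 8.27 (median 6.51) in wild-type adipose-rich arrays and from 4.77 to 5.97 (median 5.33) in adipose-poor arrays. The heterozygote ranges were 6.41 to 9.19 (median 7.56) and 4.76 to 5.26 (median 4.87). Again the groups were apart in both genotypes, and the log2 difference was 1.92 ± 0.27 (limma adjusted p = 0.000654). Of the 12505 genes, 7 had ranges that did not overlap in wild-type arrays (0.056%), 44 in heterozygote arrays (0.352%), and 2 in both with the same direction (0.016%). Those 2 were Car3 and Plin4. Of the 23 genes that differed, 4 had separate ranges in wild-type arrays and 12 in heterozygote arrays. These genes were chosen by their difference in the same arrays, so these counts are a description. Groups of 6 arrays separate by chance more readily than groups of 8, so such counts cannot be compared between the genotypes.

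Fatty acid uptake was represented by Lpl and Cd36. Lpl, the lipase that frees fatty acids from lipoproteins, ran from 9.60 to 11.28 against 8.18 to 9.72 in wild-type arrays and from 9.53 to 11.50 against 7.06 to 9.67 in heterozygote arrays. The ranges touched in both genotypes, and the log2 difference was 1.73 ± 0.26 (limma adjusted p = 0.000942). Cd36, a fatty acid transporter, ran from 6.98 to 9.34 against 4.99 to 8.98 in wild-type arrays. A single adipose-poor tumor, at 8.98, made most of that overlap. In heterozygote arrays Cd36 was apart, at 7.26 to 9.59 against 4.32 to 5.87. Its log2 difference was 2.25 ± 0.37 (limma adjusted p = 0.00327), and second probe sets of Lpl and Cd36 gave 1.54 and 2.32.

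Cyp2e1, a cytochrome P450 made in liver and in adipocytes, ran from 4.97 to 8.36 (median 7.02) in wild-type adipose-rich arrays and from 4.51 to 5.12 (median 4.86) in adipose-poor arrays. The heterozygote ranges were 5.04 to 10.06 and 3.77 to 4.44. All but 1 adipose-rich wild-type array lay above every adipose-poor array, and the log2 difference was 2.51 ± 0.40 (limma adjusted p = 0.00231). Retn, the adipocyte hormone resistin, ran from 6.38 to 8.98 against 6.05 to 6.50 in wild-type arrays and from 6.86 to 9.31 against 5.92 to 6.48 in heterozygote arrays. Its log2 difference was 1.42 ± 0.24 (limma adjusted p = 0.0042).

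The genes that follow were in no list and are placed together by their known sites of expression. Clec10a, the C-type lectin CD301 of macrophages and dendritic cells, ran from 6.11 to 9.50 (median 7.79) in wild-type adipose-rich arrays, against a median of 5.80 and a highest value of 7.19 in adipose-poor arrays. In heterozygote arrays it was apart, at 7.02 to 8.44 against 5.31 to 5.92. The log2 difference was 1.97 ± 0.29 (limma adjusted p = 0.000757). Cd209a, another C-type lectin of dendritic cells and macrophages, ran from 5.46 to 7.26 against 4.96 to 6.06 and from 5.55 to 6.61 against 4.64 to 5.35, a log2 difference of 0.94 ± 0.17 (limma adjusted p = 0.0115).

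Retnla, a secreted resistin-like protein of alternatively activated macrophages that adipose tissue also makes, was apart in wild-type arrays, at 6.69 to 9.44 against 5.67 to 6.64. In heterozygote arrays its ranges overlapped, at 6.22 to 8.79 against 5.60 to 7.29. The log2 difference was 1.38 ± 0.27 (limma adjusted p = 0.0243). The call ended without sham wild-type replicate 64 (adjusted p = 0.0502) or irradiated heterozygote replicate 23 (adjusted p = 0.0512). General macrophage markers were tested alongside. None of 16 tested members of that list was called, 8 were above 0, and differences ran from -0.13 to 1.24 with a median of 0.00. The list median was -0.19 in wild-type and 0.42 in heterozygote arrays. The members of lowest p were Cd163, a scavenger receptor, at 0.82 (adjusted p = 0.569), Lyve1 at 1.24 (adjusted p = 0.677), Gpnmb at 0.58 (adjusted p = 0.684) and Csf1r at 0.28 (adjusted p = 0.829), and 1 of the 16 had an unadjusted p below 0.05. Clec10a, Cd209a, Retnla and Serpina3n have close paralogs, and cross-hybridisation of their probe sets was not tested.

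The antibody-related genes Jchain and Mzb1 were higher as well. Jchain, the joining chain of polymeric antibodies, ran from 5.65 to 8.82 (median 6.96) against 4.52 to 6.95 (median 5.07) in wild-type arrays and from 7.11 to 9.43 (median 8.45) against 4.03 to 7.71 (median 5.47) in heterozygote arrays. The log2 difference was 2.02 ± 0.41 (limma adjusted p = 0.0305). Mzb1, a chaperone of antibody assembly, differed by 0.49 ± 0.11 (limma adjusted p = 0.0455). The heavy-chain genes Ighm (1.45, adjusted p = 0.0796) and Igha (1.77, adjusted p = 0.123) did not pass. In the list of B and plasma cell genes, 2 of 6 tested members were called and 5 were above 0, with a median of 0.98. Over all genes tested, 0.184% were called and 51.5% were above 0. The list was chosen with earlier results of these data known. The Jchain call ended in 14 of the 28 fits that left out 1 array (highest adjusted p = 0.0692), and the Mzb1 call in 21 (highest adjusted p = 0.0886).

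Dpt, the matrix protein dermatopontin of fibroblasts and adipose progenitors, ran from 7.67 to 10.57 against 5.88 to 8.13 in wild-type arrays and from 7.76 to 10.08 against 6.21 to 8.11 in heterozygote arrays. It overlapped in both, with a log2 difference of 1.68 ± 0.31 (limma adjusted p = 0.0108). It was the sole called member of 10 tested adipose progenitor genes. The others included Pi16 (1.28, adjusted p = 0.203), a marker of progenitors around vessels, and Dpp4 (0.82, adjusted p = 0.132), while Pdgfra stood at -0.11.

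The remaining named genes belonged to no single role. Serpina3n, a secreted serine protease inhibitor, differed by 1.30 ± 0.22 (limma adjusted p = 0.00334). It ran from 5.80 to 8.34 against 5.03 to 6.34 in wild-type arrays and was apart in heterozygote arrays, at 5.76 to 7.39 against 4.81 to 5.49. Wfdc21 differed by 1.54 ± 0.31 (adjusted p = 0.0257), Scn7a, a sodium channel, by 1.46 ± 0.30 (adjusted p = 0.0378), and Dpep1, a membrane dipeptidase, by 1.16 ± 0.24 (adjusted p = 0.039). These last 3 calls ended in 5, 18 and 20 of the fits that left out 1 array. Dpep1 was above the floor of the filter in 8 adipose-rich, 3 middle and 0 adipose-poor arrays, so it was tested only because of the group where it is high, and its difference is a description. The higher genes of smaller change, named after their values were seen, were Adh1 (0.68), an alcohol dehydrogenase of retinol metabolism, Slc36a2 (0.67), an amino acid transporter, Syngr2 (0.52) and Ndufv3 (0.44), a subunit of respiratory complex I. Adh1 also entered the test through the adipose-rich group, with 5 adipose-rich, 1 middle and 0 adipose-poor arrays above the floor, and the same limit applies. The Syngr2 and Ndufv3 calls (adjusted p = 0.0491 each) ended in 23 and 24 of the fits that left out 1 array, with highest adjusted p of 0.105 and 0.108.

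Lower in adipose-rich tumors were Dzip3, Zfp317 and Tbc1d12. Dzip3, a ubiquitin ligase, ran from 8.03 to 8.53 against 8.25 to 9.73 in wild-type arrays and from 7.44 to 8.25 against 8.05 to 8.88 in heterozygote arrays. Its log2 difference was -0.72 ± 0.14 (limma adjusted p = 0.0138). Its 5 probe sets disagreed, with differences from -0.88 to 0.03. Zfp317, a zinc finger gene, fell by 0.56 (limma adjusted p = 0.0463). Its values lay near the floor of the filter, with 2 adipose-rich, 11 middle and 8 adipose-poor arrays above it. Tbc1d12, a protein with a Rab GTPase-activating domain, fell by 0.53 (limma adjusted p = 0.0431), with a second Tbc1d12 probe set at -0.03. The Zfp317 and Tbc1d12 calls ended in 20 and 19 of the fits without 1 array.

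**Figure D2:**
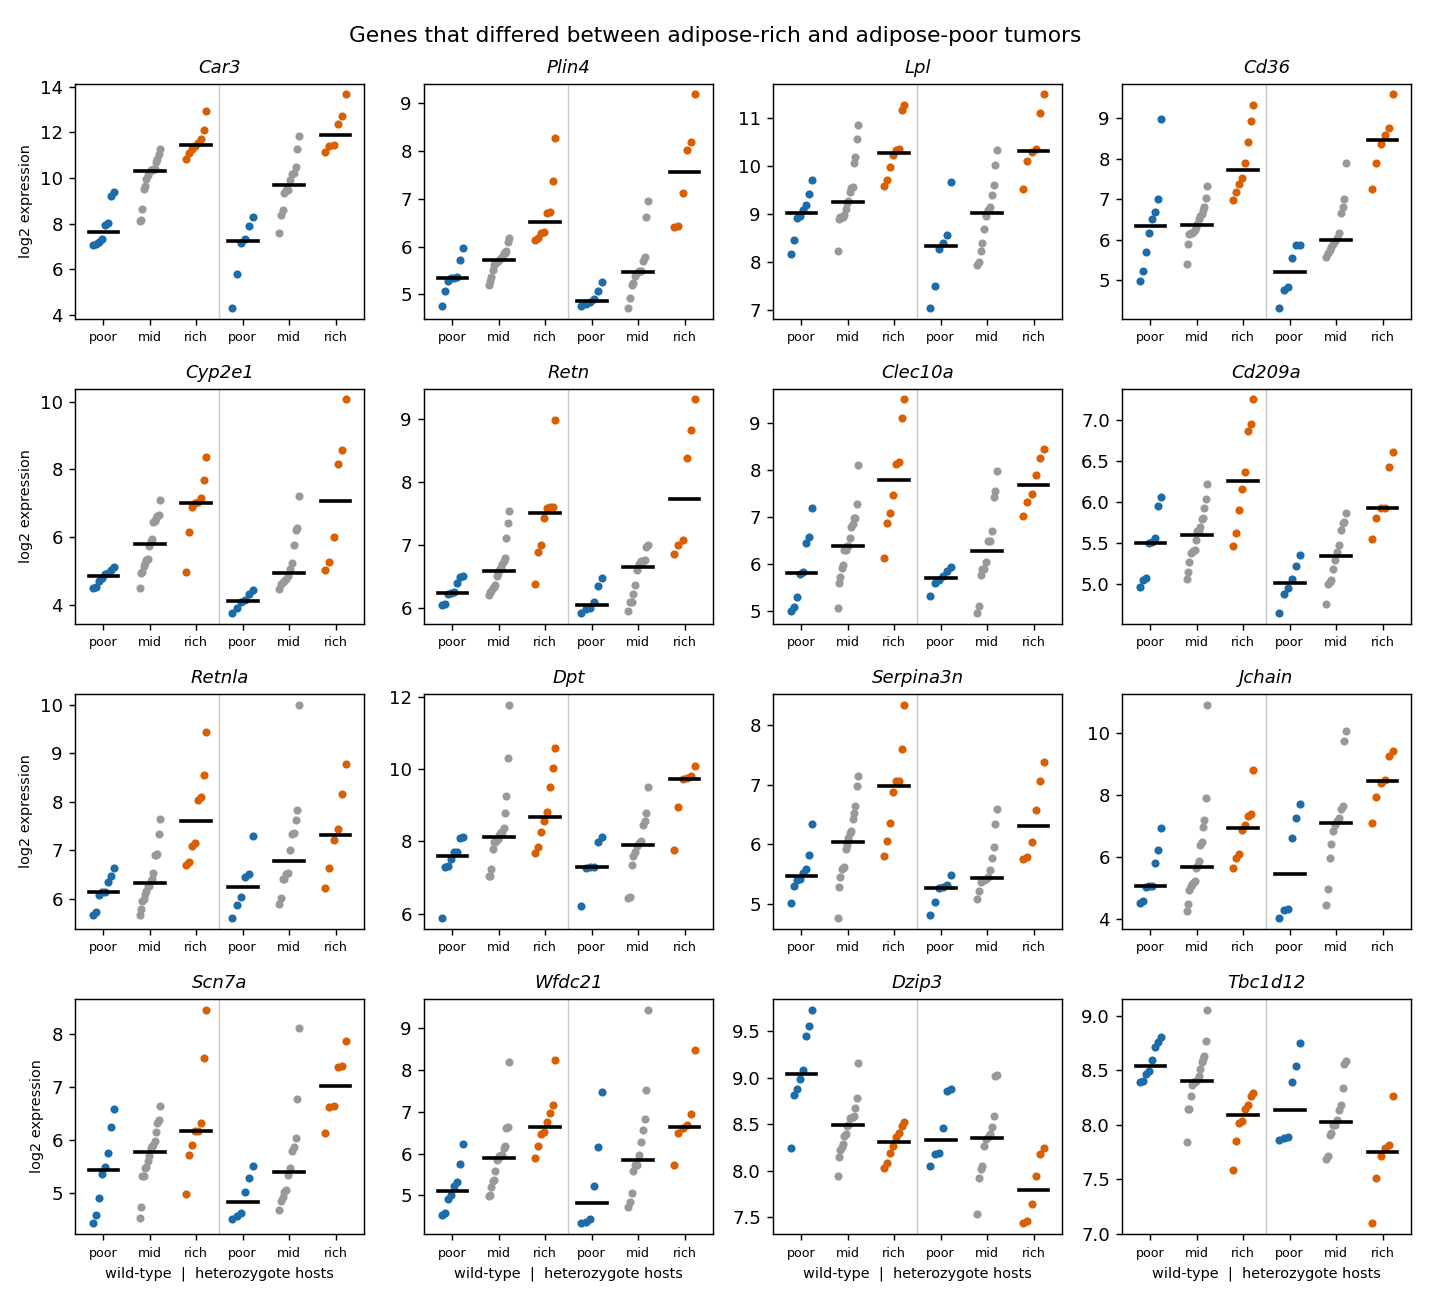
Each panel plots the log2 level of a gene in the adipose-poor (blue), middle (grey) and adipose-rich (orange) arrays of wild-type hosts (left of the line) and heterozygote hosts (right), with points sorted by level within a group and a bar at the median. Car3 and Plin4 show no overlap between blue and orange in either genotype, and Dzip3 and Tbc1d12 lie lower in orange than in blue.

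The reference sequence around the gene start is given for genes of 3 roles that were higher together. The windows shown belong to a lipid droplet, a progenitor and an immune-cell gene, from RefSeq sequence on GRCm38.p6, and 17 of the 23 genes had a window of 300 bases. Capitals mark matches, on either strand, to any of 3 elements. TTGCNNAA is a core bound by C/EBP factors. AGGTCA is a nuclear receptor half-site. TATAAA is a TATA box. The windows lie at chr17:56109733-56110032 on the minus strand (Plin4), chr1:164796413-164796712 on the plus strand (Dpt) and chr16:48842359-48842658 on the plus strand (Retnla).
Plin4: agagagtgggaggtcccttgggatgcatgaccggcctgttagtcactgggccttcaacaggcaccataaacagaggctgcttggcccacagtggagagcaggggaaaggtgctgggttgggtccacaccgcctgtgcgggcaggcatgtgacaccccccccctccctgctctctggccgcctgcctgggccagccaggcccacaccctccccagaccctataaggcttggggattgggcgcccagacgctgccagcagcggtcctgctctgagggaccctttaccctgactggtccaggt
Dpt: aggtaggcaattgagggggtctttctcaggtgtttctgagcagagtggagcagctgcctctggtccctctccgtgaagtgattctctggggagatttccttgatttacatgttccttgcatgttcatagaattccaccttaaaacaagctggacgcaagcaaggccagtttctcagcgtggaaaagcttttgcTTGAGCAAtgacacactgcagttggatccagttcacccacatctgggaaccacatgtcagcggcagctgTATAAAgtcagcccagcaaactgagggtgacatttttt
Retnla: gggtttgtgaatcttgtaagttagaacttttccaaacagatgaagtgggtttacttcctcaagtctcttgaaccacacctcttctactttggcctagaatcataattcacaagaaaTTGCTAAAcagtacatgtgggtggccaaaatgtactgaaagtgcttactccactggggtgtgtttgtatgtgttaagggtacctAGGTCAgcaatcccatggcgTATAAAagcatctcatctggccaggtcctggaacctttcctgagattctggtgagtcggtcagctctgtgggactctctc
The Plin4 window held none of the 3 elements, Dpt held 2 of them and Retnla held all 3. The C/EBP core was present in 3 of the 17 genes and in 10.8% of all 32851 windows, the nuclear receptor half-site in 3 and 16.3%, and the TATA box in 5 and 13.6%. A match is a description of the letters and not a site of binding.

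Beyond the genes named above, no further member of the adipocyte lists was called. Over all 12505 genes tested, 0.184% were called and 51.5% had a difference above 0, and the lists were chosen with earlier results of these data known. The lipid droplet and lipolysis list had 1 called gene, Plin4, of 10 tested, although all 10 differences were above 0 (median 0.37). The lipases stayed short of the threshold, with Pnpla2 at 0.63 (adjusted p = 0.232), Lipe at 0.51 (adjusted p = 0.461) and Mgll at 1.05 (adjusted p = 0.447). Pnpla2, the first lipase of triglyceride breakdown, ran from 9.01 to 9.88 against 7.68 to 9.53 in wild-type arrays and from 8.09 to 9.12 against 7.78 to 8.77 in heterozygote arrays. In the uptake and triglyceride synthesis list 2 of 10 were called and 9 were above 0 (median 0.21), with the acyltransferases Dgat1 at 0.09, Agpat2 at 0.06 and Gpam at 0.25.

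Genes of new fatty acid synthesis held no called gene. Of 13 tested, 0 had an unadjusted p below 0.05, and differences ran from -0.36 to 0.63 with a median of 0.10. The members of lowest p were Me1, malic enzyme, at -0.34 (adjusted p = 0.755) and Elovl6, a fatty acid elongase, at -0.36 (adjusted p = 0.774). Fasn, the fatty acid synthase, differed by 0.10, Acaca by 0.04 and Acly by 0.11. The mean level of this list ran from 9.36 to 10.97 in wild-type adipose-rich arrays and from 9.13 to 10.92 in adipose-poor arrays. Secreted products had 1 called gene, Retn, of 11 (median 0.66), with the plasma proteins Orm1 at 1.32 (adjusted p = 0.254) and Hp at 1.45 (adjusted p = 0.487), and Rbp4, the retinol carrier, at 1.01 (adjusted p = 0.597). The median of the secreted products list was 0.31 in wild-type and 1.01 in heterozygote arrays.

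No member was called among 12 adipogenic regulators (median 0.19; Cebpa 0.30, Klf15 -0.08), 9 insulin response genes (median 0.07; Slc2a4, the insulin-responsive glucose transporter, 0.23), 5 thermogenic genes (median 0.16), 6 caveolar genes (median 0.20; Cav1 -0.35) or 9 adipogenesis inhibitors (median -0.04). The median of the thermogenic list was -0.31 in wild-type and 0.75 in heterozygote arrays, and that of the caveolar list -0.02 and 0.77. Car3 and Cyp2e1 were the 2 called of 13 other adipocyte-enriched genes (median 0.48), where Pnpla3 (0.48, adjusted p = 0.0857) was nearest to the threshold. Several adipocyte genes of these lists had no named probe set here or did not pass the filter on low values. Over all 34 lists, of adipocytes and of other tissues, 409 of 483 listed genes were tested.

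**Figure D3:**
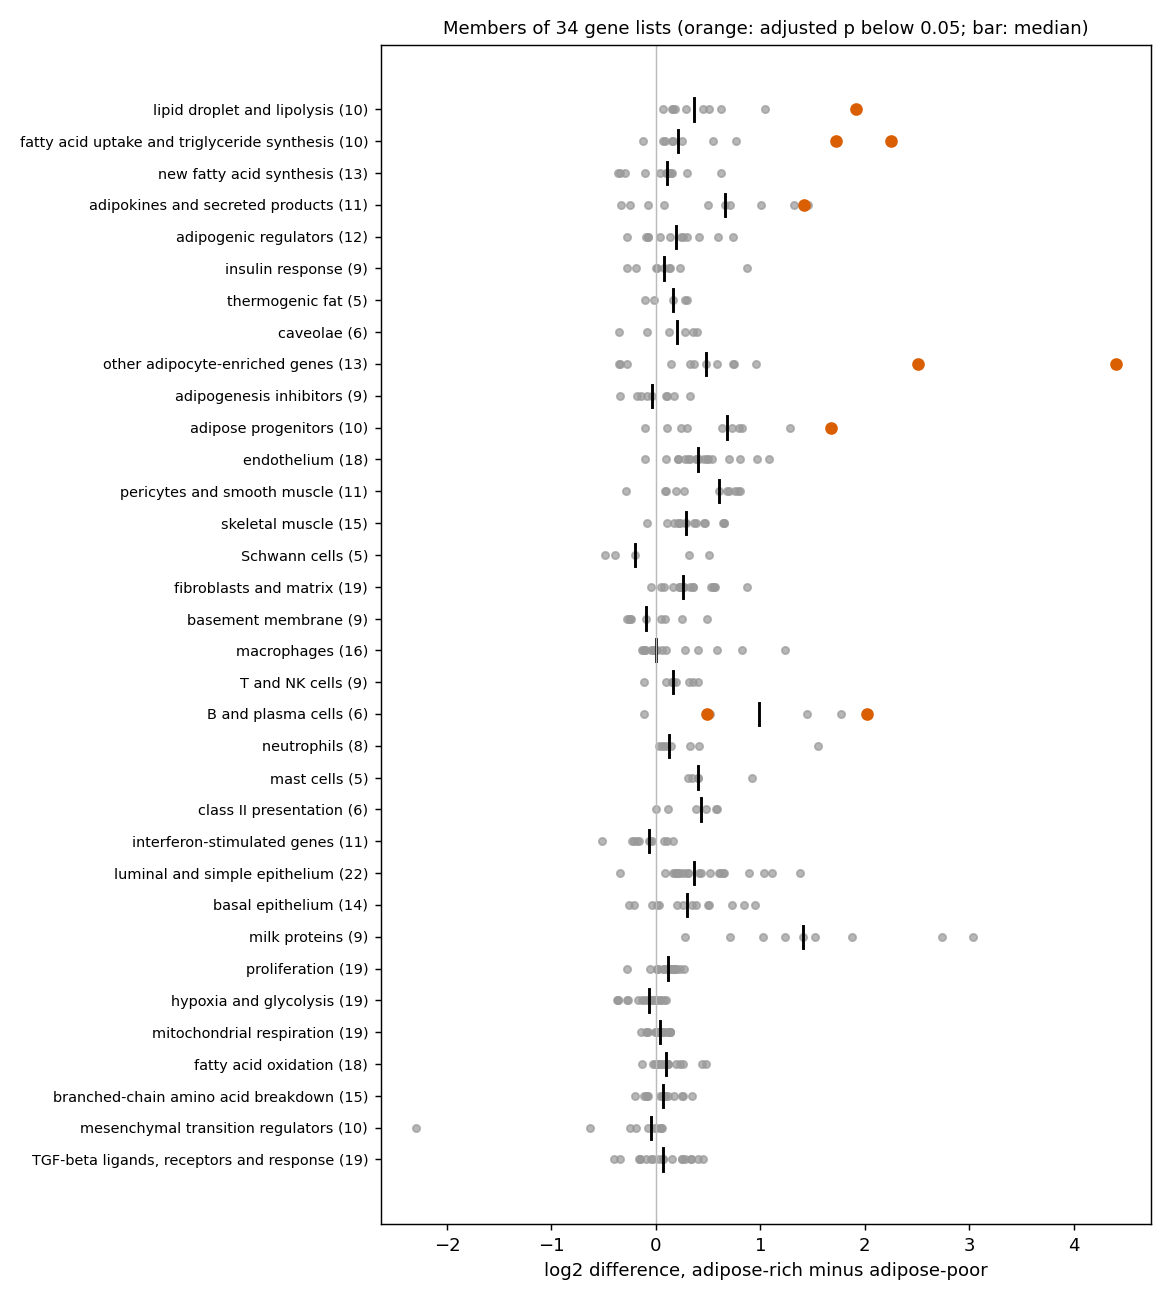
Each point is a gene of 34 lists, placed by its log2 difference between adipose-rich and adipose-poor arrays, with the number tested after the list name and a bar at the list median. Orange points had an adjusted p below 0.05. Of the 34 lists, 6 held an orange point, and the 9 milk protein genes all lay above 0 with none orange.

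Other tissue and tumor compartments were examined with the same fit. Over all genes tested, 51.5% of differences were above 0, and members of a list are not independent of each other. In 28 of the 34 lists no gene was called. Milk proteins all lay above 0 (9 of 9, median 1.40). Csn2, beta-casein, ran from 9.96 to 13.26 (median 12.45) against 5.77 to 13.30 (median 10.20) in wild-type arrays and from 12.18 to 13.66 against 6.79 to 12.24 in heterozygote arrays, a difference of 2.74 that missed the threshold (limma adjusted p = 0.0942). Luminal epithelial genes were above 0 in 21 of 22 (median 0.36) with none called, but the list median was 0.87 in wild-type and -0.47 in heterozygote arrays. The mean level of that list ran from 8.87 to 10.79 in wild-type adipose-rich and from 7.03 to 10.77 in adipose-poor arrays, and from 8.58 to 11.49 against 9.76 to 10.71 in heterozygote arrays.

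Endothelial genes were above 0 in 17 of 18 (median 0.40; Vwf 0.97, adjusted p = 0.321), and fibroblast and matrix genes in 18 of 19 (median 0.26; Dcn 0.87, adjusted p = 0.76), with none called. The median of the endothelial list was 0.12 in wild-type and 0.71 in heterozygote arrays, and that of the fibroblast list -0.19 and 0.92. Proliferation genes had a median of 0.12 over 19 genes (Mki67 0.19), and hypoxia and glycolysis genes a median of -0.07 over 19 (Vegfa -0.37). The median of the hypoxia and glycolysis list was 0.14 in wild-type and -0.375 in heterozygote arrays. Cdh2, the mesenchymal cadherin, differed by -2.30 but varied widely within groups, from 4.11 to 8.73 against 4.48 to 9.91 in wild-type arrays, and did not pass (limma adjusted p = 0.214). Tgfb1, of which heterozygote hosts lack a copy, differed by 0.40 (limma adjusted p = 0.773).

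Sample makeup and RNA quality varied within both groups. Skeletal muscle genes had 14 of 15 differences above 0 and none called, with a list median of -0.17 in wild-type and 0.99 in heterozygote arrays. Their mean level ran from 4.87 to 8.69 in wild-type adipose-rich and from 4.78 to 10.29 in adipose-poor arrays, and from 4.75 to 10.21 against 4.57 to 6.74 in heterozygote arrays. The 18S control was lower in adipose-rich arrays by 0.69 in wild-type (exact permutation p = 0.246, two-sided) and by 0.87 in heterozygote arrays (exact permutation p = 0.128; both adjusted p = 0.327 over 4 tests). Its part in the gene differences was examined only in 2 fits. With it as a covariate, 9 of the 23 genes were called, and a fit without arrays of low 18S level is given next. The next 3 fits left out arrays of low epithelial score, of low 18S level or of high muscle score. The epithelial score was the mean of Krt8, Krt18, Epcam, Cdh1 and Cldn7, and the muscle score that of Acta1, Ckm, Mylpf and Tnnt3. Cuts below 12, below 11 and above 7 removed 3, 3 and 2 adipose-rich and 3, 2 and 2 adipose-poor arrays. Each of Car3, Clec10a, Cyp2e1, Lpl, Plin4 and Serpina3n was still called in all 3 fits, while the total fell to 9, 10 and 9 genes. Genes at an unadjusted p below 0.05 (limma) numbered 950 in the main fit and 1071, 972 and 1122 in these. Fewer arrays can also lower the number of calls, and that part was not tested. The other 17 of the 23 genes each lost the call in at least 1 of these fits. Dpt was called in 0 of the 3 (highest adjusted p = 0.09), and Cd36 was lost without arrays of low epithelial score (adjusted p = 0.0536) and without arrays of low 18S level (adjusted p = 0.0956). Retn was lost without high-muscle arrays (adjusted p = 0.0572), Cd209a without low-18S arrays (adjusted p = 0.104) and Retnla without low-epithelial arrays (adjusted p = 0.0684).

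The adipose-rich difference was then compared between host genotypes. The interaction called 0 of 12505 genes (limma, adjusted p below 0.05), with 608 at an unadjusted p below 0.05, and 0 in each alternative in which it was fitted. Differences in heterozygote arrays were numerically larger for Car3 (5.34 against 3.70 in wild-type), Cd36 (3.20 against 1.54) and Plin4 (2.62 against 1.39), but each interaction had an adjusted p of 0.870. The score itself also lay further apart in heterozygote arrays (mean 9.11 in adipose-rich, 6.01 in adipose-poor) than in wild-type arrays (8.77 and 6.28). The part of that wider gap in these differences was not tested. The genes of lowest p were Dnajb14 (-0.44 in wild-type, 0.62 in heterozygote), Bcap29 (-0.46 and 0.53) and Ctso (-0.58 and 0.50) in the direction of heterozygote arrays, and Tamm41 (0.63 and -0.44), Tmcc1 (0.45 and -0.38) and Klhl21 (0.33 and -0.87) in the other (all adjusted p = 0.870). With wild-type arrays alone, 1 gene (Car3) was called, and with heterozygote arrays alone 4 (Car3, Cd36, Clec10a and Scn7a).

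The 28 middle arrays, which took no part in the comparison, gave a separate reading of the same genes. The slope of each gene on the score was fitted with host genotype as a block, in log2 units per unit of score. Plin4 (0.75 ± 0.11, limma adjusted p = 0.00338) and Car3 (1.64 ± 0.26, adjusted p = 0.0051) were called, 2 genes of 12505 (0.016%), and 0 were called with a negative slope, with 513 genes at an unadjusted p below 0.05. Without irradiated heterozygote replicate 56, 0 genes were called. Of the 20 higher genes, 18 had a positive slope and 10 an unadjusted p below 0.05, with a median of 0.49, whereas 49.1% of all genes had a positive slope and 4.1% such a p.

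Among adipocyte genes the slopes were 0.87 for Cyp2e1, 0.66 for Lpl, 0.50 for Cd36 and 0.50 for Retn. Clec10a followed at 0.71 and Retnla at 0.55. Dpt at -0.36 and Dpep1 at -0.22 pointed the other way, with unadjusted p of 0.387 and 0.305. Jchain had a slope of 0.48 with a standard error of 0.62, and Mzb1 of 0.02. Dzip3, lower in the adipose-rich group, had a positive slope of 0.39 ± 0.12 in the middle arrays (limma unadjusted p = 0.00233, adjusted p = 0.997). The genes of lowest p with a negative slope were Hoxa5 (-1.62), Uqcc2 (-0.50) and Atf4 (-0.39), and none passed (adjusted p = 0.43, 0.682 and 0.99).

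**Figure D4:**
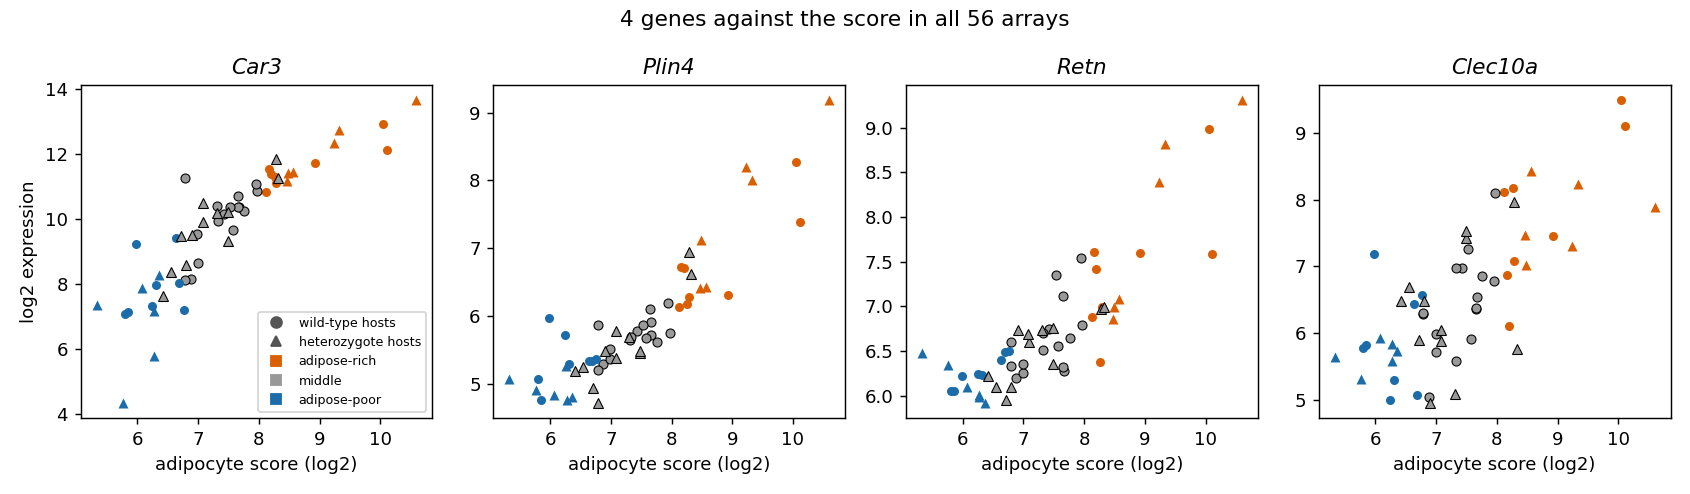
The panels plot the log2 level of Car3, Plin4, Retn and Clec10a against the adipocyte score in all 56 arrays, circles for wild-type and triangles for heterozygote hosts, with middle arrays in grey with black edges. Car3 and Plin4 climb through the grey arrays (slopes of 1.64 and 0.75), and Clec10a is more scattered (slope 0.71).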

How the data were processed

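Tumor RNA (100 ng of total RNA, 3' IVT labelling) was measured on 56 arrays. The log2 values were deposited by the authors after RMA, per the submitters' processing notes; software versions are not given in the sources used here. Array medians differed by host genotype, as after separate normalization, so genotype was a block in each fit. Probe sets were named through the platform annotation, with symbols updated from RefSeq (GRCm38.p6), and the probe set of highest mean stood for a gene. Genes that passed a floor of 5.83 (the overall median) in 6 or more arrays were tested with limma 3.58.1 (R 4.3.3) and Benjamini-Hochberg adjustment at 0.05. The score used 3 genes because Cfd matched no probe set. The number of arrays limits the precision. Members and gene lists were chosen with earlier results of these data known. Named genes were the 15 of largest absolute difference per direction among those called, up to 4 of lowest p per list, any tested member of adipocyte lists, and the 3 of lowest p where a comparison called none; other list members were named after their values were seen. The limma scripts were tested on simulated data. Replicate numbers did not recur across groups, so they paired no samples. The highest correlation of any 2 arrays was 0.991, so none was treated as a duplicate. Alternatives changed the filter, probe sets, normalization, weights, covariates, score genes, group sizes and arrays used.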

Additional observations from a re-analysis of the deposited data

Results flagged for a closer look

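Among 112 groups of values examined, 7 held an array far from the rest by Dixon's test, and chance marks about 1 group in 20. Fabp4 was 13.57 in sham wild-type replicate 46 of the adipose-rich arrays, against 11.96 in the next. Retn was 8.98 in sham wild-type replicate 65, against 7.60. Syngr2 was 11.88 in irradiated wild-type replicate 12, against 11.45. Ndufv3 was 11.63 in irradiated heterozygote replicate 32, against 11.21. Among adipose-poor arrays, Dpt was 5.88 in irradiated wild-type replicate 16, against 7.30 in the next, and the 18S control was 9.44 in sham wild-type replicate 60, against 12.76. The 3' minus 5' difference of the control transcripts was 0.558 in irradiated heterozygote replicate 4, against 0.311. Leaving out replicate 46 or 65 gave 14 or 13 called genes, and the Retn and Dpt calls held without any single array.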

How the results depend on the processing

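The 23 calls fell to 15 with the host group as a block, 9 with the 18S control as a covariate, 9 for a score without Fabp4, 13 without Cidec, 4 for the top and bottom 4 and 3 arrays, 9 for all 56 arrays split at the middle rank, 1 in wild-type hosts and 4 in heterozygote hosts. They rose to 54 with array weights, 45 with the epithelial score as a covariate and 35 with all 56 arrays in 3 classes. In fits added after seeing the data, they were 9 without arrays of low epithelial score, 10 without arrays of 18S below 11 and 9 without arrays of high muscle score. Car3 was called in each of these fits and whichever array was left out. Leaving out each array gave 13 to 26 calls, and 12 of the 23 genes were called in all 28 such fits; the count moved by over 1.5 times without sham wild-type replicates 46, 64 or 65 (14, 15 and 13), sham heterozygote replicates 19, 52 or 58 (15 each) and irradiated heterozygote replicates 23, 42 or 50 (15 each). The genotype interaction called 0 genes without any single array and in each other alternative in which it was fitted; it was not fitted with other blocks, scores or group sizes, nor without arrays of low 18S or high muscle score. The middle-array slope gave 2 calls, 4 without a filter, 98 with all 56 arrays and 4 without arrays of low epithelial score, and 0 to 2 when an array was left out. The Uqcc2 slope turned to 0.0178 with all 56 arrays. A score without Cfd was not run separately, since Cfd was never in the score. The cause of these shifts was not tested. No paired analysis was possible because replicate numbers do not recur across the groups compared.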

Other observations

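Lists not described above held no called gene. Over all genes tested, 51.5% of differences were above 0, and members of a list are not independent of each other. Class II antigen presentation genes lay above 0 in 6 of 6 (median 0.43), with H2-Aa at 0.59 (limma adjusted p = 0.673) and H2-Eb1 at 0.58 (adjusted p = 0.684). Mast cell genes lay above 0 in 5 of 5 (median 0.40, but 0.76 in wild-type and -0.07 in heterozygote arrays), with the chymase Cma1 at 0.92 (adjusted p = 0.494). Neutrophil genes lay above 0 in 8 of 8 (median 0.13), with Ltf, lactoferrin, at 1.55 (adjusted p = 0.597), and 1 of the 8 had an unadjusted p below 0.05. The mean level of the neutrophil list ran from 7.02 to 8.77 against 5.75 to 9.07 in wild-type arrays. In heterozygote arrays it ran from 7.57 to 9.55 against 5.89 to 9.72. T and NK cell genes had a median of 0.16 over 9, and pericyte and smooth muscle genes a median of 0.60 over 11. The median of the pericyte and smooth muscle list was 0.14 in wild-type and 0.76 in heterozygote arrays.

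No gene of the energy metabolism lists was called. Fatty acid oxidation had 15 of 18 genes above 0 (median 0.09) and 3 with an unadjusted p below 0.05, led by Eci1, an isomerase, at 0.44 (adjusted p = 0.312) and Acaa2, a thiolase, at 0.48 (adjusted p = 0.403). Mitochondrial respiration had a median of 0.04 over 19 genes, a list without the called Ndufv3, and branched-chain amino acid breakdown a median of 0.07 over 15. Interferon-stimulated genes had a median of -0.06 over 11, basement membrane genes -0.09 over 9, Schwann cell genes -0.20 over 5, basal epithelial genes 0.30 over 14, mesenchymal transition regulators -0.05 over 10, and genes of the TGF-beta pathway 0.06 over 19. The median of the mesenchymal transition regulators was -0.63 in wild-type and 0.43 in heterozygote arrays.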
